A study of Populus tremula with 16 samples.

Results

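Leaf RNA of 18-26 September 2011 was compared with that of 9-15 September in Populus tremula, the European aspen. The later leaves were collected on 18, 22 and 26 September (n = 3) and the earlier ones on 9, 11, 13 and 15 September (n = 4), so 7 of the 16 libraries of the series entered the comparison, with 1 library per date. The labels give only the tissue, leaf, and the collection date. They name no genotype, tree, site or treatment, and pooling of leaves is not mentioned. Each date was used as a replicate of its period, so p-values rest on the spread between dates, part of which may be technical. The library of 19 September was left out because it held no more counts than 18 September at any of its 18378 IDs with a count, and the scatter between these libraries was 0.618 times that of binomial sampling (at least 1.96 in the other pairs).

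Autumn senescence is the ordered breakdown of a leaf before it is shed. Chloroplasts are dismantled, chlorophyll and the photosynthetic proteins are degraded, and nitrogen and other nutrients are moved back into the perennial parts of the tree. Many genes are switched on and off in sequence while this happens. The deposited tables give gene IDs that begin with Potri and do not pair them with gene names, so the results below are about numbers of IDs and a few IDs, and no function is given for any of them. For the same reason the labelled tissue was not checked against marker genes. In whole leaves, fewer cells of a type and less RNA per cell cannot be told apart.

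The libraries held 3271054 to 4344936 counts in 18-26 September and 719419 to 4477500 counts in 9-15 September. Within the earlier period, 11 and 15 September were shallow, with 719419 and 836643 counts, and no library of the later period was. An observed 0 is compatible with up to 3 counts, or 0.615 to 0.805 CPM (counts brought to a common library size with TMM, the trimmed mean of M-values of edgeR) in 18-26 September and 0.629 to 3.67 CPM in 9-15 September. Of the 41335 IDs, 13702 had no count in these 7 libraries, and 12990 passed the filter on low counts and were tested.

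Between these neighbouring periods, a large part of the leaf transcriptome differed, in both directions. In 18-26 September 1672 IDs were higher and 1911 were lower than in 9-15 September, together 3583 of the 12990 tested IDs (27.6%; 12.9% higher, 14.7% lower), according to edgeR's quasi-likelihood test at a Benjamini-Hochberg adjusted p of 0.05. The change exceeded 2-fold for 1176 of the higher and 1623 of the lower IDs, and it exceeded 8-fold for 71 and 53. The median change was 1.26 log2 units among the higher and -1.39 among the lower IDs, against -0.02 over all tested IDs. The libraries of 18-26 September did not overlap with those of 9-15 September for 33.4% of the tested IDs, with 2208 of these IDs higher (17%) and 2132 lower (16.4%).

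**Figure D1:**
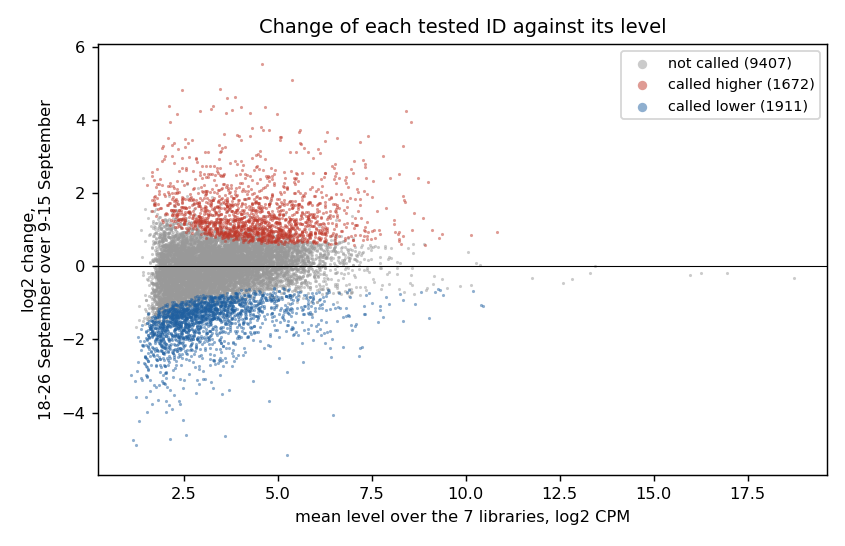
Each point is 1 tested ID, with its mean level over the 7 libraries in log2 CPM on the x axis and its log2 change, 18-26 September over 9-15 September, on the y axis. The 1672 IDs called higher and the 1911 called lower are both found over most of the range of levels, with more of the lower IDs at low levels.

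The split into higher and lower IDs depended on how libraries were scaled. Under TMM 46.7% of the calls were higher IDs, and under relative log expression 48% were. Under upper-quartile scaling the figure was 34.4%, and with library totals only it was 61%. The tested IDs as a whole had a median log2 change of -0.02 (TMM), 0.00 (relative log expression), -0.17 (upper quartile) and 0.13 (library totals), so a direction given here is relative to TMM. The number of calls depended on some single dates. It was 1973 of 11945 tested IDs (16.5%) without 9 September and 1988 of 12676 (15.7%) without 13 September. With all 7 libraries thinned to 1 depth, 4668 IDs could be tested and 911 were called (19.5%). In the 22 alternatives run, 0 of the IDs called in 18-26 September over 9-15 September were called in the opposite direction. These alternatives reuse the same libraries, so a reversed call was unlikely from the start.

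Moving the boundary between the periods by 1 date lowered the number of calls more than leaving out any 1 library. When 18 September was counted with the earlier leaves, 289 of 14193 tested IDs were called (2.04%). When 15 September was counted with the later leaves, 1436 of 12990 were called (11.1%). A date moved in this way widens the spread inside a period under a steady drift as well as a step. These counts therefore cannot tell the 2 apart. A linear trend over the days 9 to 26 September, fitted to the same 7 libraries, called 3765 IDs (29%), of which 1785 rose and 1980 fell with the day (edgeR, quasi-likelihood). Without 26 September the trend called 799 of 13660 tested IDs (5.85%), while the comparison of periods called 2758 (20.2%). With any 1 of the earlier dates left out, the trend called more IDs than the comparison of periods. The numbers were 2788 and 1973 without 9 September. The trend also called more without 18 September (3958 against 3758). With the remaining later date left out the numbers were close, 2799 and 2802. Whether a step or a steady drift described the levels better was not tested.

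The libraries of 18 and 22 September were closer to each other than to 26 September, which stood further from the earlier dates. The root mean square log2 difference over the tested IDs was 0.47 between 18 and 22 September, 0.63 between 22 and 26 September and 0.75 between 18 and 26 September. Pairs across the periods differed by 0.83 to 1.39, and pairs within 9-15 September by 0.49 to 1.01. These differences include counting noise, which is larger in shallow libraries. With the 7 libraries brought to equal depth by random thinning (164929 counts, leaving aside the 10 most abundant IDs), the range was 0.68 to 0.82 within 18-26 September, 0.67 to 0.74 within 9-15 September and 0.78 to 1.12 across the periods. These ranges overlap. At equal depth 18 September differed by 0.78 from 15 September and by 0.82 from 26 September. The difference between 18 and 22 September, 0.68, lay within the range of pairs inside 9-15 September. On the first principal component of the 7 libraries, which held 53% of the variance, 18, 22 and 26 September lay at 64.2%, 69.3% and 100% of its range. The libraries of 9, 11, 13 and 15 September lay at 15%, 0%, 9.46% and 16.7%, so the earlier dates did not follow the calendar along it. The component was taken without thinning, and 11 September, at its 0% end, was the shallowest of the 7 libraries. Whether depth set this order was not tested.

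Levels of the called IDs were followed over 15 libraries, as log2 CPM relative to the mean of the 4 libraries of 27 July to 31 August. The 18-26 and 9-15 September values of these IDs are a description, since the calls were made on them. Such calls favour a difference between the periods and little spread inside each. The steps between these dates therefore cannot tell a break from a steady drift. The 1672 higher IDs had medians of 0.51, 0.34, 0.37 and 0.56 log2 units on 9, 11, 13 and 15 September, then 1.60, 1.62 and 2.12 on 18, 22 and 26 September. The 1911 lower IDs had medians of -0.39, -0.43, -0.23 and -0.63 on the earlier 4 dates and -1.44, -1.44 and -1.95 on the later 3. Over the 3 days from 15 to 18 September the median of the higher IDs moved by 1.04 and that of the lower IDs by -0.81. Over the next 4 days, to 22 September, the medians moved by 0.02 and 0.00, and over the 4 days to 26 September by 0.50 and -0.51. On the dates that did not enter the comparison, 28 September and 1 October, the medians were 2.74 and 2.67 for the higher IDs and -2.52 and -2.56 for the lower IDs. The 9407 IDs that were not called had medians between 0.13 and 0.17 in 18-26 September and between -0.03 and 0.05 in 9-15 September.

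**Figure D2:**
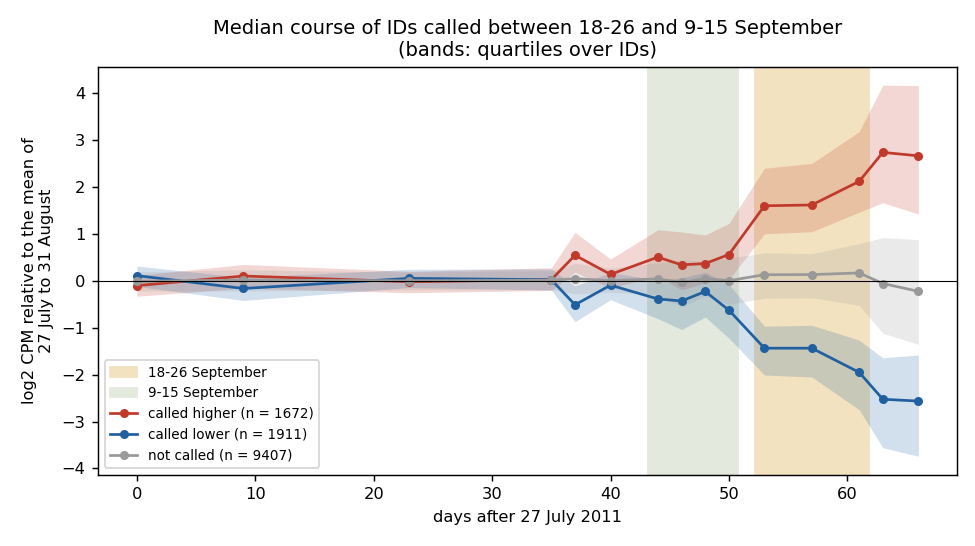
Median log2 CPM relative to the mean of 27 July to 31 August (y axis) by days after 27 July 2011 (x axis), for the IDs called higher, called lower and not called between 18-26 September (tan) and 9-15 September (green), with bands for the quartiles over IDs. The medians of the called IDs were nearly level from 18 to 22 September and further from 0 on 26 September, at 2.12 and -1.95. The calls were made on the shaded dates, so the course over them is a description.

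Whether 26 September lay beyond the dates before it was looked at for IDs called without that library, an addition made after the data were seen. Calls from all 3 later dates favour IDs that are extreme on 26 September, so they cannot show this. With 18 and 22 September alone against 9-15 September, 1314 of 13660 tested IDs were higher (9.62%) and 1444 lower (10.6%) by edgeR's test. On 26 September, 928 of these higher IDs stood above both 18 and 22 September (70.6%, against 38.3% of all tested IDs), and 226 stood below both (17.2%, against 40.8%). Of the lower IDs, 937 stood below both dates (64.9%, against 40.8%) and 235 above both (16.3%, against 38.3%). The median difference between 26 September and the mean of 18 and 22 September was 0.42 log2 units for the higher IDs and -0.44 for the lower IDs, against -0.02 for all tested. No test was made of these shares, since IDs of 1 library are not independent.

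Most of the called IDs also differed, in the same direction, between libraries that took no part in the comparison. The leaves of 28 September and 1 October (n = 2) were set against those of 27 July and 5, 19 and 31 August (n = 4), which share no library with the comparison above. Of the 1672 higher IDs, 1649 could be tested there, and 1404 of them (85.1%) were higher in the last leaves, against 28.3% of the 12769 IDs tested in both comparisons (edgeR's quasi-likelihood test, adjusted p under 0.05). Of the 1911 lower IDs, 1886 could be tested, and 1694 (89.8%) were lower in the last leaves, against 35.6%. The median change in these libraries was 2.73 log2 units for the higher IDs and -3.09 for the lower IDs, against -0.33 for the IDs tested in both. A small number went the other way: 22 of the higher IDs were lower in the last leaves than in summer, and 7 of the lower IDs were higher. Scaled by library totals, the shares were 95.8% for the higher IDs, against 49.3%, and 55.9% for the lower IDs, against 14.6%, with a median change of 1.02 over the IDs tested in both.

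**Figure D3:**
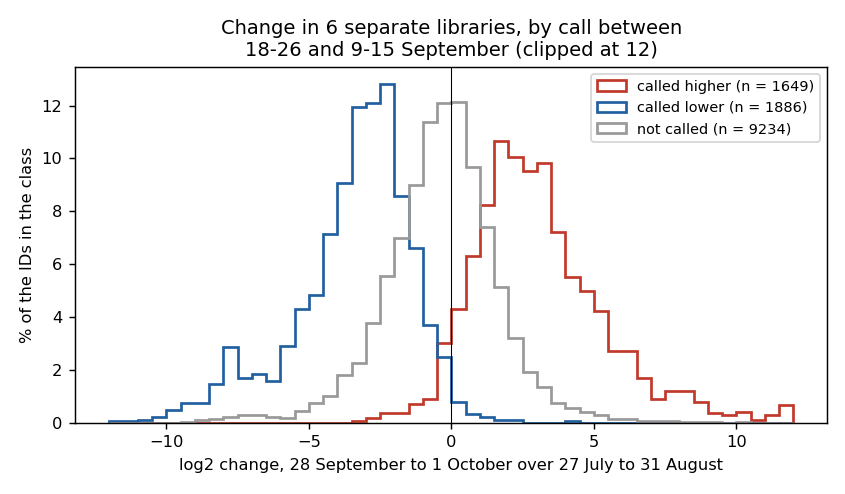
Distribution of the log2 change of 28 September to 1 October over 27 July to 31 August (x axis, clipped at 12) as a percentage of the IDs in each class (y axis), for IDs called higher, called lower and not called between 18-26 and 9-15 September. The class called higher has its median at 2.73 and the class called lower at -3.09.

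Since no names were available, 2 IDs that rose and 2 that fell are given, those with the largest changes among the 1273 higher and 848 lower IDs whose periods did not overlap and which reached a mean of 10 CPM in either period. Potri.006G065700 stood at 7.59, 14.4 and 107 CPM on 18, 22 and 26 September (37, 67 and 399 counts), against 1.47, 0, 0.35 and 0 CPM on 9, 11, 13 and 15 September (7, 0, 1 and 0 counts). It was higher in every later library, and 26 September was far above the other later dates. The change was 5.53 log2 units (SE 1.02, edgeR adjusted p = 0.00237), and by summed counts of 503 against 8 it was 44.5-fold, 95% exact interval 22.4 to 104 for counting error alone. Without 26 September the change was 3.62 and without 9 September 7.24, and with limma-voom the call ended (adjusted p = 0.0608). The value without 9 September is poorly fixed, since the earlier libraries then held 0, 1 and 0 counts of this ID. It reached 694 and 626 CPM on 28 September and 1 October, against 2 counts in all in the 4 summer libraries.

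Potri.003G112600 followed a like course at a higher level. It stood at 11.7, 38.6 and 185 CPM on 18, 22 and 26 September, against 3.36, 0, 1.4 and 1.08 CPM on 9, 11, 13 and 15 September. The later libraries climbed with the date and lay above all 4 earlier ones. The change was 5.09 log2 units (SE 0.85, edgeR adjusted p = 0.0015), or 31.1-fold by summed counts of 924 against 21 (95% exact interval 20.3 to 50.6). It was 3.47 without 26 September, 6.00 without 9 September and 6.93 with the libraries thinned to 1 depth. Without 9 September the earlier libraries held 0, 4 and 1 counts of this ID, so that value is poorly fixed. On 28 September and 1 October it reached 1070 and 1200 CPM, against 0 to 0.893 CPM in the 4 summer libraries, a 2940-fold difference by summed counts of 3318 against 6 (95% exact interval 1350 to 8020).

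Potri.014G149700 had the largest fall. It stood at 3.08, 1.08 and 0.537 CPM on 18, 22 and 26 September (15, 5 and 2 counts), against 77.2, 19.6, 89.5 and 26.9 CPM on 9, 11, 13 and 15 September (368, 16, 256 and 25 counts). The later libraries lay below the earlier ones, and among the earlier ones 11 and 15 September, which are also the shallow libraries, were the low pair. The change was -5.17 log2 units (SE 0.60, edgeR adjusted p = 0.00033), which is 42.7-fold lower by summed counts of 22 against 665 (95% exact interval 28 to 68.6). Without 18 September it was -6.10, and with 9 and 13 September left out it was -3.93 (edgeR adjusted p = 0.0293). No count was found on 28 September or 1 October, against 1987 in the 4 summer libraries. With TMM library sizes, the last leaves were at least 101-fold lower by the 95% exact interval for counting error alone. With 3 counts over the 2 libraries taken as the floor, the bound was 125-fold.

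Potri.007G015500 stood at 0.615, 1.08 and 0.537 CPM on 18, 22 and 26 September (3, 5 and 2 counts), against 37.1, 9.8, 8.39 and 10.8 CPM on 9, 11, 13 and 15 September (177, 8, 24 and 10 counts). The later libraries were close to their floor and below every earlier one, of which 9 September was the highest. The change was -4.65 log2 units (SE 0.62, edgeR adjusted p = 0.000507), or 30.9-fold lower by summed counts of 10 against 219 (95% exact interval 16.5 to 65.4). Without 9 September it was -3.69, and with 18 September counted among the earlier leaves the call ended (adjusted p = 0.0862). The last leaves had 1 count, against 1236 counts in the 4 summer libraries, where it ranged from 41 to 118 CPM.

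**Figure D4:**
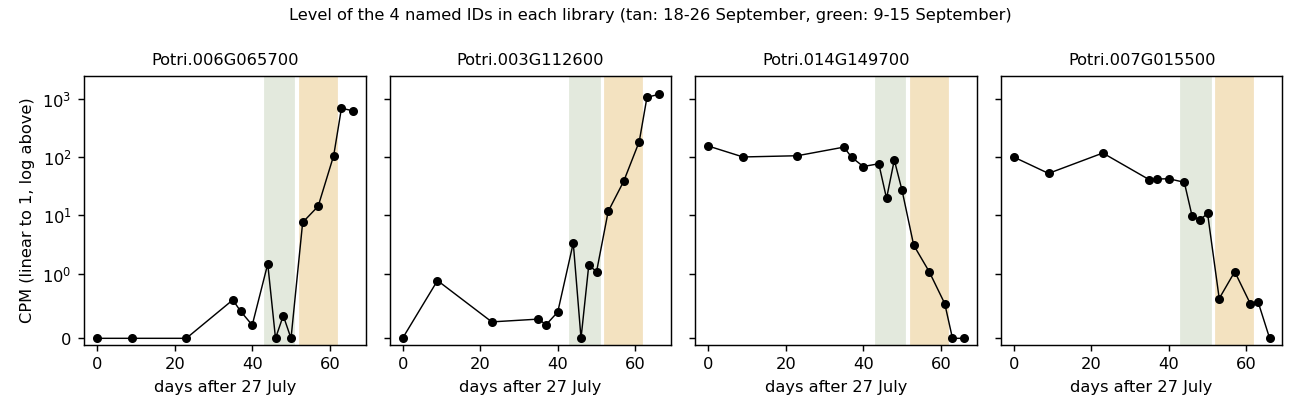
Level of the 4 named IDs in CPM (y axis, linear to 1 and logarithmic above) in each of 15 libraries by days after 27 July (x axis), with 18-26 September in tan and 9-15 September in green. Potri.006G065700 and Potri.003G112600 climb through the later period, to 107 and 185 CPM on 26 September, while Potri.014G149700 and Potri.007G015500 lie at or below 3.08 CPM there.

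A smaller number of IDs were seen in only 1 of the periods. At least 10 counts in 18-26 September and none in the 4 libraries of 9-15 September were found for 56 of the 41335 IDs, and the highest of them had 69. Of these, 27 also had no count in the 4 summer libraries, and 46 had a count on both 28 September and 1 October. In the other direction, 22 of the 41335 IDs had no count in 18-26 September and at least 10 in 9-15 September, up to 34. Of these, 13 had none on 28 September or 1 October. Each ID entered these counts only through the period in which it was seen, and no background share was computed. The later period held 11405236 counts in all and the earlier one 8482583, so IDs new in the later leaves had more counts to be seen in. Outside the 10 most abundant IDs of the series, the later libraries held 1062291 to 1191612 counts and the earlier ones 164929 to 1069321.

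Rises and falls were spread unevenly over abundance. Among the 10 most abundant tested IDs, 1 was called by edgeR's test, as higher in 18-26 September, and the median log2 change of the 10 was -0.22. Of the next 90, 31 were higher and 18 lower, while the next 900 IDs included 304 higher (33.8%) and 99 lower ones (11%), with a median of 0.41. The following 4000 IDs included 769 higher (19.2%) and 380 lower ones (9.5%). The least abundant 7990 IDs included 567 higher (7.1%) and 1414 lower ones (17.7%), and their median was -0.21. The filter on low counts bears on this last class, where an ID could pass through the period in which it was high.

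The 10 most abundant IDs of the series held 72.6%, 70.2% and 67.5% of the counts on 18, 22 and 26 September, against 76.1%, 77.1%, 74.9% and 76.7% on 9, 11, 13 and 15 September. Every later library was below every earlier one. The mean was 70.1 ± 2.53% in 18-26 September (SD, n = 3) and 76.2 ± 0.951% in 9-15 September (SD, n = 4), a difference of -6.09 percentage points (two-sided exact permutation p = 0.0571, the smallest that 3 against 4 libraries can give).

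Of 4725 pairs of tested IDs with adjacent numbers, 413 had both members called (8.74%, where the share of IDs called would give 7.61% for unrelated members). In 280 of the 413 the direction was shared (132 both higher and 148 both lower), which is 67.8%, where the split of all calls into higher and lower would give 50.2%. No test was made of these shares. Runs of at least 4 adjacent called IDs of 1 direction numbered 8, of which 3 were higher and 5 lower. Of the 5 lower runs, 4 were under the prefix 013G, with 8, 6, 5 and 4 IDs and median log2 changes of -1.30, -1.62, -1.33 and -1.20. Under that prefix 21% of the 568 tested IDs were lower, against 14.7% over all, and 11.3% were higher, against 12.9%. Under the other prefixes the share of lower IDs ranged from 12.6% to 18.3%. The treatment of reads that fit several similar genes is not stated, so neighbours may share counts.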

How the data were processed

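Raw counts of reads for each of 41335 gene IDs were deposited for 16 libraries, in 1 joint table and in 16 single tables that hold the same values (0 differed). The tools, per the submitters' processing notes, were STAR 2.4, HTSeq, Trimmomatic 1.0, FastQC 1.0 and CASAVA 1.8.2, with no role stated. No source used here gives the genome build, annotation, strand setting or treatment of shared reads. The normalised table was not used.

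Samples were grouped by the collection date in the labels. IDs were kept by filterByExpr (minimum count 10, minimum total 15), scaled by TMM and tested with edgeR 4.0.16 in R 4.3.3 (estimateDisp, glmQLFit, glmQLFTest), on the 7 libraries alone, with Benjamini-Hochberg adjustment over all tested IDs. SE is the log2 change over the root of F. Printed CPM were scaled over 15 libraries, and log2 CPM used a prior count of 2. Alternatives used DESeq2 1.42.0 and limma 3.58.1. On simulated data for this comparison (12990 IDs), changes were given to 200 IDs, all above the median level. Of these, 19 of 68 changed 2-fold were called, and 66 of 66 changed 4-fold. Unchanged IDs made up 6.79% of those called (11 of 12790 unchanged IDs). Recovery at lower levels was not examined. The real comparison called 27.6% of its IDs, and both simulated rates depend on the share of IDs that change. Libraries were also drawn independently. The rates were therefore not examined under the conditions of the real data. Folds by summed counts used TMM library sizes. Intervals and floors cover counting error only. The tests treat dates as independent, and correlation between neighbouring dates was not estimated.

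The periods, the planned gene lists and the rule for naming IDs were chosen with earlier results of these data known. The gene lists are patterns in gene names, and they were not applied because the files pair no names with IDs. The rule then names the 2 largest rises and the 2 largest falls.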

Additional observations from a re-analysis of the deposited data

Results flagged for a closer look

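In 2 of 10 groups of 4 libraries examined (the 4 named IDs and the share of the most abundant IDs, in 9-15 September and in 27 July to 31 August), 1 library was flagged by Dixon's test. Its gap to the nearest neighbour, divided by the range of the group, exceeded the 95% critical value. About 1 group in 20 does so by chance where values are normally distributed, which counts near 0 are not. Potri.007G015500 was at 37.1 CPM on 9 September, against 10.8 CPM in the nearest library of 9-15 September. Potri.006G065700 was at 0.594 CPM on 31 August, from 2 counts, where the other 3 summer libraries had 0, and that value lies below the library's floor of 0.891 CPM. A group in which only 1 library has a count is always flagged.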

How the results depend on the processing

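Dates stood in for replicates. Within the earlier period 11 and 15 September were shallow, and depth and date cannot be told apart there. The number of IDs called between 18-26 and 9-15 September, 3583, stayed within 1.5 times that value in 15 of 22 alternatives. Leaving out each library in turn gave 1973 to 3758. It was 1802 of 7713 tested IDs (23.4%, against 27.6%) with at least 20 counts required in every library of either period. At 1 depth it was 911 of 4668 (19.5%). It was 289 of 14193 (2.04%) with 18 September moved to the earlier period and 1436 of 12990 (11.1%) with 15 September moved to the later one. With 9 and 13 September left out, chosen after the data were seen, it was 175 of 13180 (1.33%). With 11 and 15 September left out, chosen likewise, it was 2969 of 14223 (20.9%). DESeq2's Wald test called 2726 and limma-voom 3892. The cause of these differences was not tested. Fewer counts were used at 1 depth, and fewer libraries where dates were left out. The trend over the days called 799 to 3958 IDs when 1 library was left out and 3779 with library totals alone.

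The number called in the last leaves over summer leaves was 10647 of 16543 tested IDs (64.4%). It was 12537 of 28717 (43.7%) without the filter on low counts and 9202 of 16543 (55.6%) with DESeq2's Wald test. Leaving out 1 summer library gave 9786 to 10499. With library totals alone it was 10241 (61.9%). Higher IDs made up 44.9% of the calls under TMM and 76.8% with library totals, so this split depended on the scaling. The share of counts in the 10 most abundant IDs differed by -7.33 to -4.8 percentage points, with exact permutation p from 0.0571 to 0.133. All 4 named IDs kept their direction in the alternatives that tested them. They were picked for large changes without overlap, so the rule nearly fixed this outcome in advance. With 9 and 13 September left out, the calls of Potri.006G065700 (log2 change 9.96, adjusted p = 0.113) and Potri.003G112600 (6.84, adjusted p = 0.0684) ended, by edgeR's test. The earlier libraries then left, 11 and 15 September, held 0 and 0 counts of Potri.006G065700 and 0 and 1 of Potri.003G112600. The sizes of these 2 changes are therefore poorly fixed. Gene lists were not examined under any setting, since none could be applied. No paired analysis was possible because the labels give no replicate numbers shared between the periods.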

Other observations

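On 2 September, a date outside the comparison, the IDs called between 18-26 and 9-15 September stood further from summer than on 5 September. The median of the 1672 higher IDs was 0.55 log2 units above the summer mean on 2 September and 0.14 above it on 5 September. The median of the 1911 lower IDs was -0.51 on 2 September and -0.09 on 5 September. The 9407 IDs that were not called had medians of 0.05 and 0.00 on these dates.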
